A study of Mus musculus with 48 samples.

Results

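Whole dorsal skin of C57BL/6 mice was compared between early anagen and mid-anagen, neighbouring stages of the growth phase of the hair cycle, by RNA sequencing. All 5 libraries of dorsal skin labelled with these stages were used, 2 of early anagen and 3 of mid-anagen, out of 48 libraries in the series, and every gene of the deposited table entered the comparison. Both groups were of the same strain, the same body site and the same tissue, whole skin, and no treatment or allele was given for either, so that stage was the labelled difference. The age and sex of the mice, and whether a library held 1 mouse or several, are not given in the sources used here, so the p-values measure the spread between these libraries, which may be technical. In whole skin, fewer cells of a type and less RNA per cell cannot be told apart.

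The hair follicle grows in cycles. At the start of anagen, the growth phase, progenitor cells next to the dermal papilla, a cluster of signalling fibroblasts, divide and push down into the dermis, and form a bulb whose matrix cells feed the concentric layers of the inner root sheath and the hair shaft. The shaft is built from hair keratins, which make the filaments, and keratin-associated proteins, which are cross-linked between them, while melanocytes of the bulb pass pigment into it. WNT, hedgehog, FGF and BMP signals are exchanged between these compartments as growth proceeds, and the study sequenced skin of several body sites by stage to compare the course of putative activators and inhibitors of the cycle between sites.

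The values were FPKM, mapped fragments per length of transcript and per depth of the library, so levels can be compared between genes per unit of length. The number of fragments behind each library was estimated from the steps between the lowest values, as 10743672 and 9108177 for early anagen and 10405317, 9608463 and 13674689 for mid-anagen, within the range of 6762266 to 26024166 over all skin libraries. Across genes, log2 values correlated at 0.977 between the early anagen libraries, at 0.977 to 0.979 among the mid-anagen libraries and at 0.914 to 0.921 between the stages. Follicle markers were read from the compared values themselves and are no separate check of the labels. Shh, the hedgehog ligand of the growing follicle, was present in each library of both stages. Hair keratins held 0.136% and 0.155% of summed FPKM in early anagen and 1.13% to 1.21% in mid-anagen, with 1.23% to 1.32% in dorsal late anagen. Skeletal muscle genes, which mark the muscle sheet under the dermis, made up 1.14% to 1.18% of summed FPKM in early anagen and 0.254% to 0.278% in mid-anagen, and dermal matrix genes made up 0.908% to 0.955% and 0.184% to 0.193%. How much the depth of the sampled tissue contributed to the differences given here was not tested.

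Of 17076 genes that reached 0.5 FPKM in 2 or more of the libraries, 7398, or 43.3%, differed at an adjusted p under 0.05 by limma on log2(FPKM + 1), with 3985 and 4347 when early anagen replicate 1 or 2 was left out. A gene under 0.5 FPKM in every library of 1 stage entered only through the other stage, so its direction was largely fixed by this filter. Among all genes tested, 1731 rose (10.1%) and 5667 fell (33.2%) from early to mid-anagen, and the median log2 fold change over all of them was -0.24. The split between higher and lower depended on the scaling. With libraries rescaled by the median of gene ratios, which puts the median gene at 0.00, 5821 of 16959 genes (34.3%) differed, 3055 higher (18%) and 2766 lower (16.3%), so that the higher share of the calls was 52.5% in place of 23.4%; with quantile normalization it was 45.2%. Keratin and keratin-associated protein genes together took 2.62% and 2.82% of summed FPKM in early anagen and 11.8% to 12.1% in mid-anagen, and in FPKM a larger share for some genes leaves a smaller share for the rest. With libraries scaled without these genes, 2068 genes were higher and 4128 lower, with a median of -0.14, so more genes still fell than rose. Fold changes below are given as deposited, counts of list members are read against the median of -0.24 and the percentages above, and the counts under median-of-ratios scaling stand beside them where they differ (in parentheses, risers first where a pair is given). For each gene named below as risen or fallen, the libraries of the stages did not overlap.

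**Figure D1:**
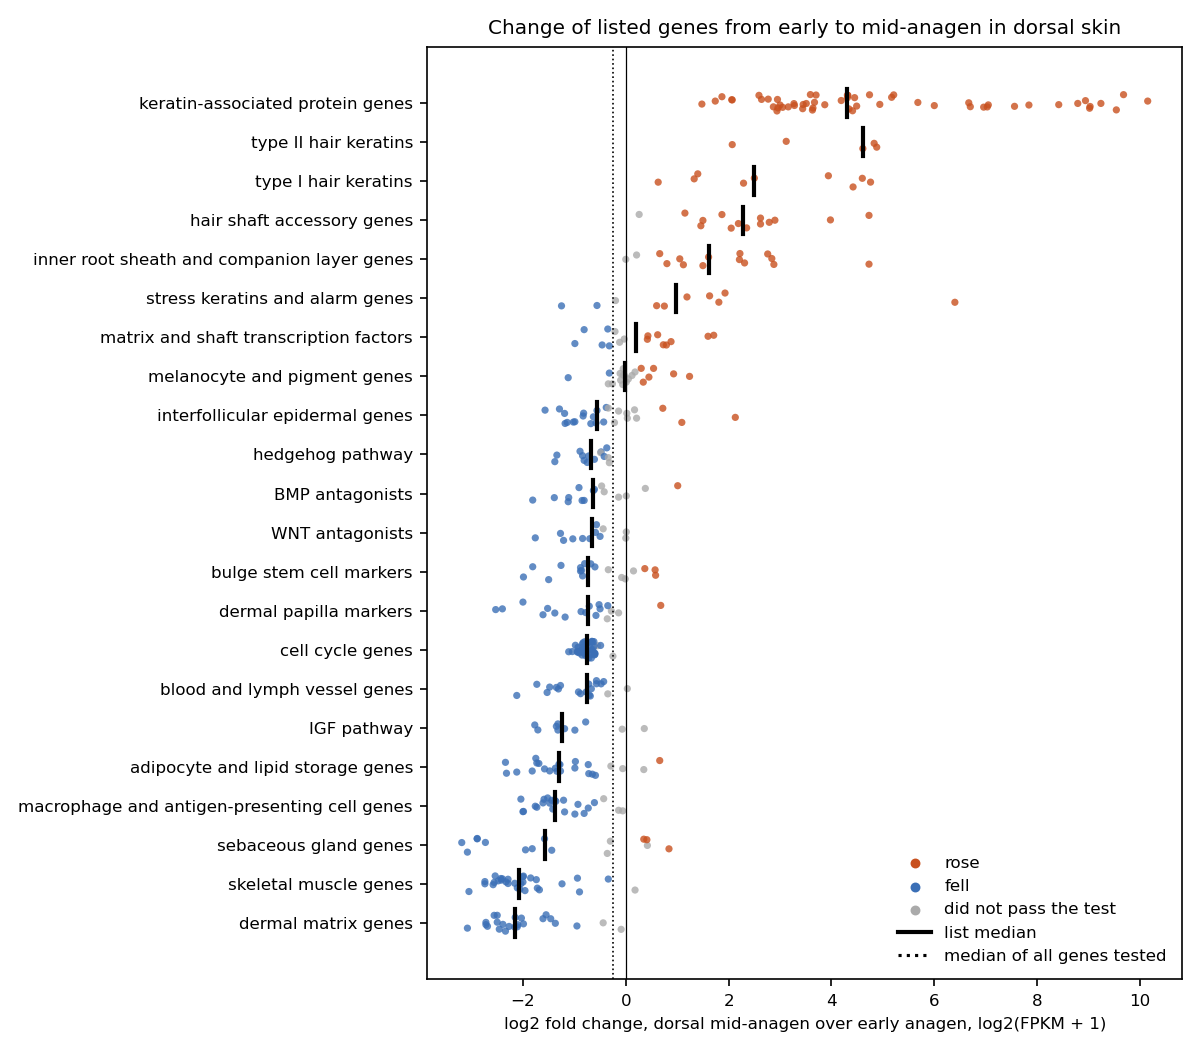
Fold changes from early to mid-anagen for the genes of each list, on the log2 scale. Each point is a gene, coloured by whether it passed the test and in which direction, the vertical bars mark list medians, and the median over all genes tested is -0.24. Keratin-associated protein genes and hair keratins lie to the right and dermal matrix, skeletal muscle and sebaceous gland genes to the left.

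All 14 hair keratins analysed rose. The 9 type I (acidic) hair keratins had a median log2 fold change of 2.5, and the 5 measured type II (basic) ones, their filament partners, a median of 4.61. Krt34 (ENSMUSG00000043485.2, chr11:100037347-100041554 on GRCm38) had 10.8 and 11.1 FPKM in the early anagen libraries and 313, 310.2 and 349.9 FPKM in the mid-anagen libraries, a log2 fold change of 4.76 ± 0.08 (SE), adjusted p = 7.79e-06. Its neighbours in the type I cluster of chromosome 11 moved with it. Krt33a went from 120.1 and 101 FPKM to 2739, 2681 and 2664 FPKM (4.6 ± 0.09), Krt33b from 80.5 and 65.9 FPKM to 1564, 1609 and 1571 FPKM (4.42 ± 0.10), and Krt31 from 120.5 and 100.1 FPKM to 1725, 1736 and 1642 FPKM (3.94 ± 0.10). These 4 genes are close copies of each other, so reads that fit several of them were apportioned by the quantification, and their single values are less certain than their sum. For each of the 14 hair keratins every mid-anagen library lay above every early anagen library, as it did for 16.3% of all genes tested, while the reverse held for 50.3%.

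The hair keratins differed in how far they had already come on in early anagen. Krt35 is among the first hair keratins made above the matrix, and Krt32 is a keratin of the cuticle. Krt35 was the highest hair keratin of early anagen, at 659 and 617 FPKM, and reached 1065, 1021 and 886 FPKM in mid-anagen, the smallest rise of the type I list (0.63 ± 0.10, adjusted p = 0.00648), while Krt32 went from 147 and 121 FPKM to 367, 339.9 and 352 FPKM (1.4 ± 0.10). Among the type II keratins, Krt81 (ENSMUSG00000067615.3, chr15:101459061-101463751 on GRCm38) had 48.8 and 39.9 FPKM and then 1469, 1448 and 1091 FPKM, a log2 fold change of 4.88 ± 0.16 (SE), adjusted p = 4.14e-05. Krt86 rose from 25.6 and 20.9 FPKM to 603, 641 and 527 FPKM (4.61 ± 0.13), and Krt83 from 107 and 96.6 FPKM to 942, 982 and 763 FPKM (3.12 ± 0.13). Krt81, Krt83 and Krt86 are also near copies of each other. Krt84 was barely present in early anagen, at 0.2 and 0.18 FPKM, and stood at 35.1, 36.9 and 27.4 FPKM in mid-anagen (4.83 ± 0.15 on the log2(FPKM + 1) scale, which understates the change of so low a gene). Krt84 entered the test only through mid-anagen, so its direction was fixed by the filter. Krt82, a keratin of the shaft cuticle, rose least of the type II list, from 18.1 and 20.2 FPKM to 91.6, 90.03 and 70 FPKM (2.07 ± 0.14).

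The DNA before the starts is described for some of the most changed type I genes. The 250 bases upstream of the annotated start are given for 3 of them, in the gene's direction, from the RefSeq annotation of GRCm38.p6, with capitals for TATAAA (the letters of a TATA box, where transcription is set up) and for the words CTTTGAA, then CTTTGAT, then CTTTGTT (letters of the kind bound by LEF and TCF proteins, the nuclear partners of beta-catenin), on either strand. All 3 lie on the minus strand of chromosome 11: Krt31 at chr11:100050552-100050801, Krt33b at chr11:100029869-100030118 and Krt34 at chr11:100041555-100041804.
Krt31: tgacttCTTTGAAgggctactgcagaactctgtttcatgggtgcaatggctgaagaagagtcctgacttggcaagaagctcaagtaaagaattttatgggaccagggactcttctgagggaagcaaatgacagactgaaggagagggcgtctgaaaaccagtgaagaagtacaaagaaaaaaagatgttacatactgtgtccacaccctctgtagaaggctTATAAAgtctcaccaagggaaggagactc
Krt33b: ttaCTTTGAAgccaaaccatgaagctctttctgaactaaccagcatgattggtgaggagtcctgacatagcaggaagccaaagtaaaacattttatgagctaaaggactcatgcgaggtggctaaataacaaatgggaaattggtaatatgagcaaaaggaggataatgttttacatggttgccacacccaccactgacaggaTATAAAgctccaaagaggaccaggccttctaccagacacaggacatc
Krt34: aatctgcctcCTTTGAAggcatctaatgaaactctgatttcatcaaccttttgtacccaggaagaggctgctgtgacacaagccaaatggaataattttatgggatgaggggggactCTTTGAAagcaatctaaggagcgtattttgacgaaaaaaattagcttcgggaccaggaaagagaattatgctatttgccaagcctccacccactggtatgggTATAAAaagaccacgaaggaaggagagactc
In these windows TATAAA begins 29 bases before the start of Krt31, 47 before that of Krt33b and 31 before that of Krt34, and CTTTGAA begins 244, 247 and 240 bases before, with another copy 133 bases before the start of Krt34. Of the 7 type I hair keratins found in the promoter table, 5 (71.4%) held TATAAA and 5 (71.4%) held CTTTGAA, against 14.3% and 5.19% of all 27025 genes in it. Of the 2 type II hair keratins in it, 1 held TATAAA and none held a CTTTG word. The stretches shown here and below were chosen among those with a match, so that each holds one was fixed in advance. Krt33a is not shown. The members of each list are neighbouring duplicates, which share sequence by descent, and a match of letters is a description, not a site of binding.

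**Figure D2:**
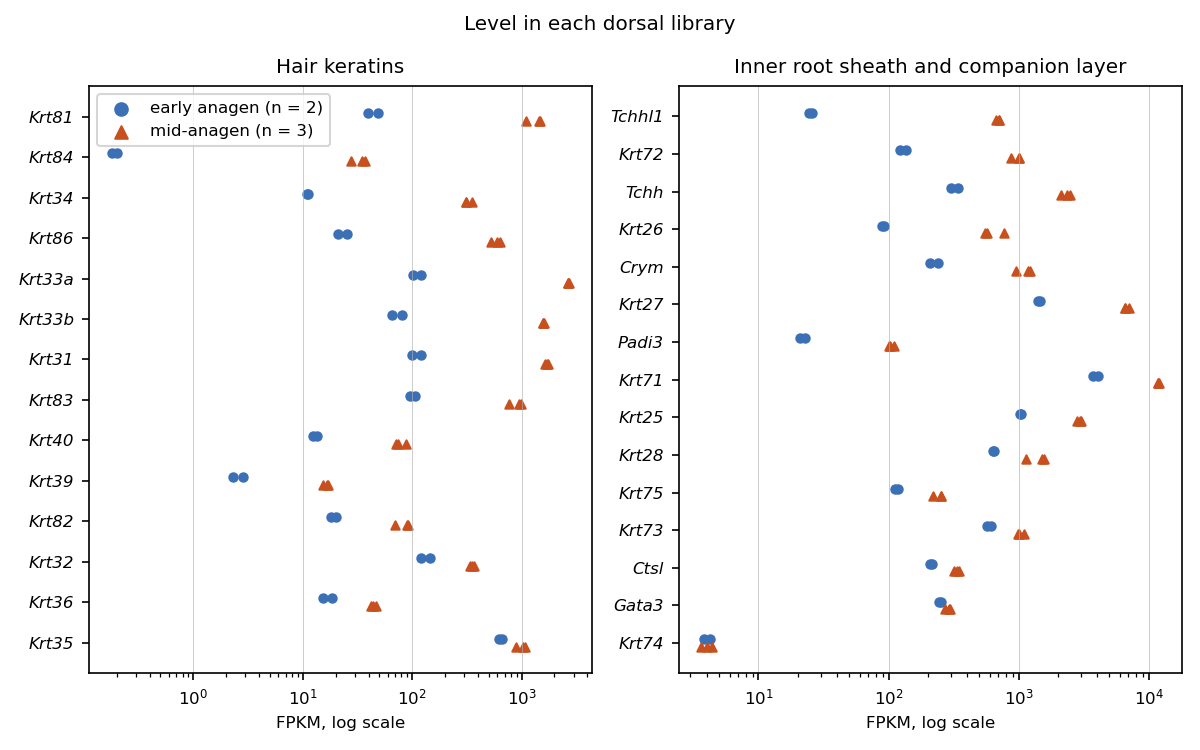
FPKM of hair keratins and inner root sheath genes in each dorsal library, on a log scale. Points are libraries, coloured by stage. Krt34, Krt33a, Krt81 and Krt86 lie far higher in mid-anagen, whereas Krt35 and Krt71 were already high in early anagen.

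The inner root sheath, the rigid sleeve that moulds the growing shaft, rose as well. Of its 15 genes (companion layer included), 13 rose (14 under median-of-ratios scaling) and none fell, with a median log2 fold change of 1.61. Krt71, the most abundant keratin of the sheath, was at 4102 and 3706 FPKM in early anagen and at 12041, 11855 and 11907 FPKM in mid-anagen (1.61 ± 0.09 SE, adjusted p = 0.0002). Its filament partners Krt27 (2.22 ± 0.09) and Krt25 (1.5 ± 0.08) rose too, as did Krt72 of the sheath cuticle (2.88 ± 0.10). Proteins that harden the sheath were among the largest rises. Tchh, trichohyalin, which fills and hardens the sheath cells, went from 302 and 344 FPKM to 2113, 2340.3 and 2487 FPKM (2.84 ± 0.11), and its relative Tchhl1 from 25.7 and 24.4 FPKM to 705, 702 and 670.3 FPKM (4.73 ± 0.07 SE, adjusted p = 6.66e-06). Padi3, an enzyme that modifies trichohyalin, rose by 2.21 ± 0.08 on the log2 scale. Krt75 of the companion layer rose by 1.05 ± 0.09. The remaining pair did not pass. Gata3, a transcription factor of the sheath, had 253 and 243 FPKM and 272, 293 and 298 FPKM (adjusted p = 0.0702, and 0.00441 under median-of-ratios scaling, where it passed), and Krt74 had 3.82 and 4.23 FPKM and 4.42, 4.04 and 3.64 FPKM (adjusted p = 0.996). The upstream stretch of Krt71, at chr15:101743098-101743347 on the minus strand, holds TATAAA 40 bases before the start and none of the 3 CTTTG words.
Krt71: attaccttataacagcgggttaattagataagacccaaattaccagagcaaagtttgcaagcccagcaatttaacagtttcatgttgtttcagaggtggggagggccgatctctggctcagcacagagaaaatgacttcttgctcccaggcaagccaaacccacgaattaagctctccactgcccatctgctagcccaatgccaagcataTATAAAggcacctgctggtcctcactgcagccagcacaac

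Genes of keratin-associated proteins went from low or absent to among the most abundant of the skin. All 56 measured genes of the 57 listed rose, as did all those measured under every alternative setting tried, with a median log2 fold change of 4.31. In no case did the stages overlap, and 16.3% of all genes tested were higher in mid-anagen without overlap. Their summed share of FPKM went from 0.139% and 0.164% in the early anagen libraries to between 6.41% and 6.74% in the mid-anagen libraries. The median gene of the family had a mean of 10.7 FPKM in early anagen and 306 FPKM in mid-anagen. In early anagen 10 of them had a mean under 1 FPKM and 3 a mean over 100 FPKM, and in mid-anagen 15 had a mean over 1000 FPKM. Krtap7-1, a high glycine-tyrosine protein, had 261 and 211 FPKM and then 11425, 11029 and 14128 FPKM (5.68 ± 0.15). Krtap11-1, a high sulfur protein, went from 109.7 and 109.9 FPKM to 2248, 2214 and 2196 FPKM (4.32 ± 0.07 SE, adjusted p = 6.66e-06). Krtap16-3, the gene with the largest rise of all genes tested, had 11.97 and 0 FPKM in the early anagen libraries and 3977, 3799 and 4562 FPKM in the mid-anagen libraries (10.15 ± 1.01 SE, adjusted p = 0.00117); with 1 early anagen library at 0, the size of its rise is less certain than its direction.

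Within the family, the rise differed by protein class and by cluster, a grouping that was made after the values were seen and carries no test. The 16 high glycine-tyrosine genes had a median log2 fold change of 7.30, the 9 high sulfur genes 4.32, the 19 ultrahigh sulfur genes 3.28 and the 12 others 4.25. By position, the 24 genes on chromosome 16 had a median of 7.04 and the 23 on chromosome 11 a median of 3.59. Of the 15 genes with a mid-anagen mean over 1000 FPKM, 9 were high glycine-tyrosine genes. Krtap19-5 had 0.92 and 0 FPKM and 1214, 1222 and 996 FPKM, and Krtap19-1 had 1.01 and 0 FPKM and 1051, 1024 and 1096 FPKM, so both were near absent in early anagen. Krtap9-5 was listed at 0 in both early anagen libraries and at 12.5, 9.98 and 9.01 FPKM in mid-anagen. At the low end, Krtap5-3 had 0.91 and 0.3 FPKM and 4.3, 3.75 and 2.36 FPKM (1.48 ± 0.26, adjusted p = 0.00802). Many members are near copies in tandem, and reads shared among them were split by the quantification.

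Upstream of these genes, TATAAA was found in 41 of the 51 keratin-associated protein genes of the promoter table (80.4%, against 14.3% of all genes), and on the gene's strand within 50 bases of the start in 34 of them (66.7%, against 3.15%). At least 1 of the 3 CTTTG words was found in 15 (29.4%, against 13.7%). CTTTGAA, which both stretches below hold, was found in 7 (13.7%, against 5.19%). The stretches before Krtap11-1 (chr16:89571184-89571433) and Krtap16-3 (chr16:88962874-88963123), both on the minus strand, are given because these genes stand for a high, steady member and for the largest rise.
Krtap11-1: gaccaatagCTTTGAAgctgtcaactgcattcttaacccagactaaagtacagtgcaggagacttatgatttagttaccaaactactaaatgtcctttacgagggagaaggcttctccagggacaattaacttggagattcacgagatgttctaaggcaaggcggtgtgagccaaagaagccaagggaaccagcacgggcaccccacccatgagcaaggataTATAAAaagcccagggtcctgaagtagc
Krtap16-3: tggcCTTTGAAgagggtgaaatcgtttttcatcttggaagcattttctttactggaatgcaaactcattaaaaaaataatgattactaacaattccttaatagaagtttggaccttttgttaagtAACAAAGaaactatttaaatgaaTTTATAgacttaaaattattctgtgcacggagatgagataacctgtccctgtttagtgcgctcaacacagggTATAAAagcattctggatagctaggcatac
TATAAA begins 28 bases before the start of Krtap11-1 and 30 before that of Krtap16-3, and CTTTGAA begins 241 and 246 bases before. In Krtap16-3 the capitals also mark CTTTGTT 125 bases and another TATAAA 102 bases before the start, both on the other strand. Among all tested genes that the table holds, TATAAA was in 18.2% of the 1084 that rose, 9.64% of the 4096 that fell and 7.51% of the 6002 that did not pass. It was in 9 of 12 hair shaft accessory genes (75.0%), in 7 of 13 inner root sheath genes (53.8%) and in 1 of 33 cell cycle genes (3.03%).

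**Figure D3:**
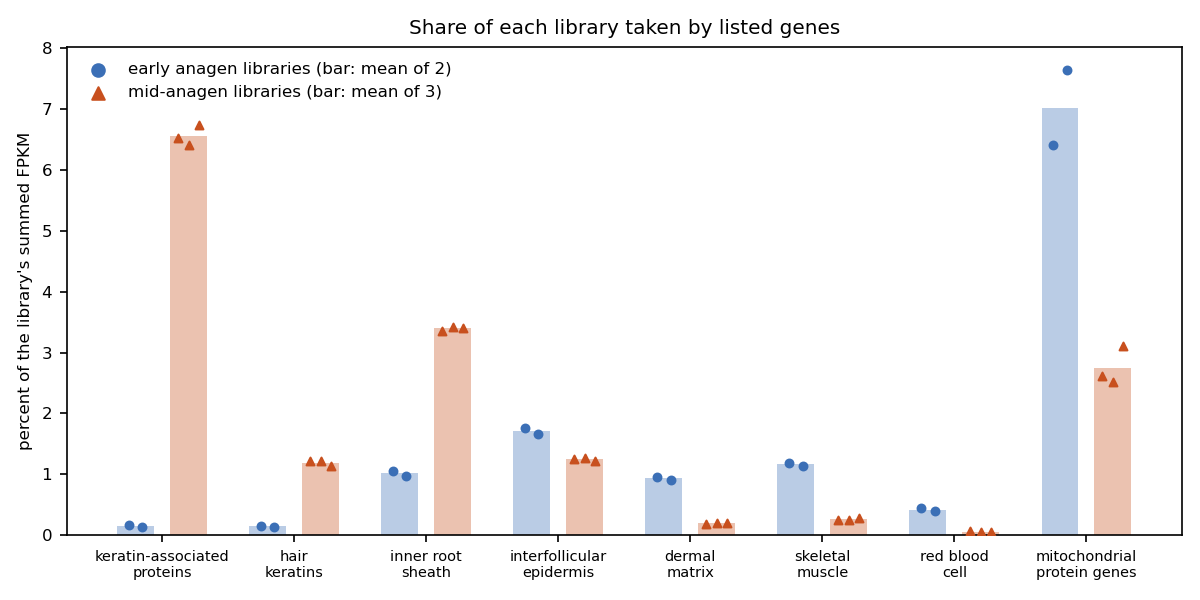
Share of summed FPKM taken by groups of genes, in percent, for the dorsal early and mid-anagen libraries. Points are libraries and bars are means of 2 and 3 libraries. Keratin-associated protein genes rise from under 0.2% to over 6%, while dermal matrix, skeletal muscle, red blood cell and mitochondrial genes take smaller shares in mid-anagen.

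Other proteins of the shaft followed the same course, with 13 of 14 measured accessory genes higher and none lower (median 2.27, and 14 higher under median-of-ratios scaling). S100a3, a calcium-binding protein of the cuticle, was at 2065 and 1717 FPKM in early anagen and 7373, 7241 and 8972 FPKM in mid-anagen (2.05 ± 0.14). Prr9, a proline-rich cornified protein, went from 1792 and 1724 FPKM to 10539, 10285 and 11539 FPKM (2.62 ± 0.10), and Gprc5d, a receptor expressed in hard keratinizing cells, from 79.9 and 65.6 FPKM to 1182, 1116 and 1167 FPKM (3.98 ± 0.10). Crisp1 was at 0.08 and 0 FPKM and then 30.5, 29.1 and 21.3 FPKM. Selenbp1 did not pass, with 67.8 and 60.6 FPKM and 84.98, 81.6 and 66.1 FPKM (adjusted p = 0.152).

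The transcription factors of matrix and shaft did not move as a block. Of 16, 8 rose and 5 fell (8 and 2 under median-of-ratios scaling, and 3 and 2 fell without early anagen replicate 1 and 2). Foxn1, whose loss gives the nude mouse its bare skin, was at 11.7 and 9.17 FPKM and then 36.5, 34.6 and 29.9 FPKM (1.6 ± 0.14 SE, adjusted p = 0.000713). Foxq1, the satin gene of the shaft's core, went from 11.1 and 10.5 FPKM to 41.7, 41.1 and 30.6 FPKM (1.71 ± 0.15), and Hoxc13, which switches on hair keratin genes, from 37.04 and 38.7 FPKM to 62.1, 70.5 and 79.5 FPKM (0.88 ± 0.12, adjusted p = 0.00312). Msx2, which acts upstream of Foxn1 in the matrix, rose from 54.6 and 53.2 FPKM to 84.99, 84.7 and 80.4 FPKM (0.62 ± 0.07). Smaller rises were found for Prdm1, Ovol1, Nfil3 and Dlx3 (between 0.42 and 0.79), of which Nfil3 was lost with either early anagen library left out and Dlx3 with replicate 2 left out. In the other direction, Msx1 fell from 78.2 and 71.1 FPKM to 40.1, 43.1 and 43.5 FPKM (-0.81 ± 0.08) and Sox21, a cuticle factor, from 30.97 and 31.3 FPKM to 15.5, 15.9 and 14.2 FPKM (-0.99 ± 0.08). Vdr, Trps1 and Dlx2 also fell as deposited (-0.32, -0.35 and -0.46), but did not pass under median-of-ratios scaling. Lef1, the WNT effector of shaft precursors, overlapped between the stages, at 38.2 and 42.8 FPKM and 36.9, 37.03 and 45.2 FPKM (-0.03 ± 0.12, adjusted p = 0.843).

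Genes of cell division were lower in mid-anagen, although the follicle was still growing by its label. Of 40 cell cycle genes, 38 fell and none rose, with a median of -0.76, and 24 fell under median-of-ratios scaling, 29 without early anagen replicate 1 and 30 without replicate 2. Mki67, the proliferation antigen, had 12.9 and 13.4 FPKM in early anagen and 6.69, 7.3 and 7.05 FPKM in mid-anagen (-0.82 ± 0.09 SE, adjusted p = 0.00146). Mcm7, of the helicase that opens DNA for replication, went from 56.8 and 56.6 FPKM to 25.9, 26.1 and 25.1 FPKM (-1.11 ± 0.07 SE, adjusted p = 0.000231), and Cdk1, the kinase that starts mitosis, from 147 and 142 FPKM to 73.3, 68.9 and 66.8 FPKM (-1.04 ± 0.07). For each of the 40 genes every mid-anagen library lay below every early anagen library, as it did for 50.3% of all genes tested. Top2a, which untangles chromosomes, fell by 0.89 ± 0.11 on the log2 scale. The cyclins Ccne1 and Ccne2 did not pass (adjusted p = 0.0895 and 0.0581). Cell cycle genes together held 0.171% and 0.173% of summed FPKM in early anagen and 0.0944% to 0.103% in mid-anagen.

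Pigment genes rose in part. Of 20 melanocyte genes, 6 rose and 2 fell, with a median of -0.01 (10 and 1, with a median of 0.27, under median-of-ratios scaling, and 3 and 1 with either early anagen library left out). Mlana, a protein of the pigment granule, went from 141 and 135 FPKM to 252, 242 and 296 FPKM (0.93 ± 0.11 SE, adjusted p = 0.00185). Tyr, the rate-limiting enzyme of melanin synthesis, had 34.5 and 34.5 FPKM and 41.8, 41.1 and 45.2 FPKM, a small rise without overlap (0.3 ± 0.08, adjusted p = 0.0259) that was lost with either early anagen library left out (adjusted p up to 0.301 over the alternatives). Slc7a11, the cystine transporter behind yellow pigment, rose by 1.24 ± 0.12, and Mitf, the master regulator of the lineage, by 0.54 ± 0.09. Dct, the next enzyme of melanin synthesis, overlapped between the stages at 217 and 213 FPKM and 189, 188 and 223 FPKM (-0.11 ± 0.10, adjusted p = 0.389). Sox10, a factor that melanocytes share with Schwann cells, fell from 9 and 7.28 FPKM to 3.96, 2.87 and 2.86 FPKM (-1.12 ± 0.16).

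Genes of hedgehog signalling, which drives proliferation of the new follicle, were lower in mid-anagen, ligand and targets among them. The call for the receptor Ptch1 depended on the scaling. Of 14 genes, 11 fell and none rose (median -0.67, with 7 fallen under median-of-ratios scaling and 6 and 8 without early anagen replicate 1 and 2). The ligand Shh (ENSMUSG00000002633.4, chr5:28456815-28467256 on GRCm38) had 9.99 and 11.7 FPKM and then 3.59, 4.05 and 3.34 FPKM (-1.34 ± 0.12 SE, adjusted p = 0.000801). Hhip, an inhibitor that the pathway itself induces, went from 8.55 and 6.85 FPKM to 2.09, 2.8 and 2.14 FPKM (-1.38 ± 0.15), and Gli1, the pathway's target and effector, from 6.14 and 4.79 FPKM to 2.91, 2.21 and 2.33 FPKM (-0.89 ± 0.15, adjusted p = 0.00694). The receptor Ptch1 fell by 0.61 ± 0.12 as deposited but had an adjusted p of 0.072 under median-of-ratios scaling, and did not pass under quantile normalization either. Without early anagen replicate 1 the count of members that fell was 6, and without replicate 2 it was 8.

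WNT ligands, the signals that start anagen and specify shaft cells, moved in both directions. Of 13 measured, 1 rose and 6 fell, and their median of -0.26 lay next to that of all genes (0.04 under median-of-ratios scaling, with 2 higher and 6 lower). Wnt3, expressed in matrix and shaft precursors, went from 17.9 and 16.5 FPKM to 31.8, 34.1 and 31.9 FPKM (0.89 ± 0.08 SE, adjusted p = 0.000857). Wnt10b, a ligand of anagen onset, was low in both stages and fell from 2.53 and 2.71 FPKM to 1.23, 0.97 and 1.02 FPKM (-0.81 ± 0.12, adjusted p = 0.00486). Wnt5b fell from 6.45 and 6.31 FPKM to 1.97, 2.47 and 2.54 FPKM (-1.15 ± 0.12) and Wnt6 from 6.89 and 5.78 FPKM to 2.78, 2.09 and 2.93 FPKM (-1.03 ± 0.15), with smaller falls of Wnt7b, Wnt16 (adjusted p = 0.0577 without early anagen replicate 2) and Wnt10a. Wnt5a, which is made in the dermal papilla, and Wnt11 did not pass.

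Partners of the ligands showed the same mixture. Of 16 R-spondins and WNT receptors, 2 rose and 7 fell (5 and 5 under median-of-ratios scaling, and 4 fell without early anagen replicate 1). Rspo4 rose by 0.65 ± 0.17 and Fzd5 by 0.43 ± 0.11, neither of which passed with either early anagen library left out, while Rspo1 and Rspo2, which amplify WNT signals by keeping receptors at the membrane, fell by 1.24 ± 0.23 (adjusted p = 0.0551 without early anagen replicate 1) and 1.18 ± 0.12. Secreted antagonists were mostly lower, with 9 of 12 fallen and none risen (median -0.65; 1 and 7 under median-of-ratios scaling). Sfrp2, which binds WNTs in the dermis, went from 18.9 and 19.99 FPKM to 4.24, 5.58 and 5.41 FPKM (-1.76 ± 0.13 SE, adjusted p = 0.000411), and Notum, an enzyme that strips the lipid from WNTs, from 12.8 and 14.2 FPKM to 5.55, 6.14 and 4.24 FPKM (-1.21 ± 0.15). Sfrp1 had 39.6 and 36.1 FPKM and 37.4, 38.1 and 38.02 FPKM and did not pass (adjusted p = 0.993). Among 15 target genes of beta-catenin 2 rose and 7 fell (4 and 5 under median-of-ratios scaling). Bambi, also a decoy receptor of BMP and TGF-beta, rose from 22.8 and 23.2 FPKM to 46.4, 47.2 and 48.6 FPKM (1.01 ± 0.07 SE, adjusted p = 0.000326), Tcf7 rose by 0.54 ± 0.09, Edar, the placode receptor, fell by 0.99 ± 0.16, and Axin2, the common readout of the pathway, stood at 4.87 and 4.44 FPKM and 4.52, 4.65 and 4.3 FPKM (-0.04 ± 0.10, adjusted p = 0.756).

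BMPs hold stem cells quiet and, in the bulb, promote shaft differentiation. Of 9 measured ligands 3 rose and 2 fell (median 0.32; 5 and 2 under median-of-ratios scaling). Bmp2, a ligand of shaft precursors, went from 6.12 and 6.63 FPKM to 9.07, 9.3 and 8.86 FPKM (0.45 ± 0.09, adjusted p = 0.0112, or 0.0682 without early anagen replicate 1), whereas Bmp4, a ligand of the papilla and matrix, had 35.8 and 33.1 FPKM and 27.1, 28.2 and 33.1 FPKM, with an adjusted p of 0.148. Leaving out either early anagen library left 1 riser. The antagonists were lower in the main, with 9 of 15 fallen and 1 risen (median -0.63). Fstl1, a follistatin-like protein of fibroblasts, fell from 176 and 168 FPKM to 49.1, 43.9 and 52.4 FPKM (-1.81 ± 0.10), and Htra1, a secreted protease, from 104 and 104 FPKM to 38.8, 38.01 and 40.2 FPKM (-1.39 ± 0.07). In the follicle, Fst, follistatin, fell from 34.8 and 34.1 FPKM to 15.1, 14.99 and 15.9 FPKM (-1.12 ± 0.07), and Sostdc1, an antagonist of both BMP and WNT, from 179 and 181 FPKM to 98.4, 96.8 and 111 FPKM (-0.81 ± 0.09). Of 13 BMP receptors and response genes 4 rose and 2 fell (5 and none under median-of-ratios scaling, and 2 rose with either early anagen library left out). Inside the cell, the inhibitory Smads rose: Smad7 went from 3.01 and 3.04 FPKM to 7.73, 10.5 and 8.56 FPKM (1.29 ± 0.14 SE, adjusted p = 0.00153) and Smad6 from 2.31 and 1.88 FPKM to 5.58, 7.34 and 5.21 FPKM (1.18 ± 0.16). The direct targets Id1, Id2 and Id3 did not pass, at log2 fold changes of -0.34, -0.09 and -0.14. Id4, of the same family, fell as deposited (-0.72 ± 0.14, adjusted p = 0.00952) but not under median-of-ratios scaling (adjusted p = 0.0663).

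FGF genes moved in both directions, 3 of 14 risen and 5 fallen, with a median of -0.13 (0.03 under median-of-ratios scaling). Fgf5 (ENSMUSG00000029337.2, chr5:98254184-98277030 on GRCm38), the signal that ends anagen and whose loss gives the angora coat, went from 1.39 and 1.32 FPKM in early anagen to 5.85, 5.56 and 5.38 FPKM in mid-anagen (1.49 ± 0.10 SE, adjusted p = 0.000316), and Fgf22, an epithelial ligand, from 14.2 and 15.4 FPKM to 31.5, 36.8 and 32.4 FPKM (1.12 ± 0.10). Fgf7, the papilla's keratinocyte growth factor, fell from 7.78 and 7.11 FPKM to 2.39, 1.91 and 2.27 FPKM (-1.41 ± 0.12), and the receptor Fgfr1 from 35.97 and 30.9 FPKM to 8.53, 9.55 and 8.9 FPKM (-1.78 ± 0.10). Among 12 EGF family genes 2 rose and 5 fell as deposited, against 3 and 1 under median-of-ratios scaling and 2 and 2 with either early anagen library left out. Both risers were ligands: Tgfa, whose loss gives a wavy coat, went from 14.3 and 13.6 FPKM to 32.1, 29.5 and 26.04 FPKM (1.01 ± 0.11), and Nrg1 from 0.34 and 0.34 FPKM to 2.09, 2.06 and 1.99 FPKM (1.18 ± 0.11).

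TGF-beta, IGF and Notch genes mostly were lower or did not pass. Of 10 TGF-beta and activin genes 5 fell (4 under median-of-ratios scaling), Tgfb3 most, from 8.84 and 8.28 FPKM to 1.88, 2.14 and 2.15 FPKM (-1.65 ± 0.10), and Inhbb, an activin subunit, rose by 0.43 ± 0.09, a call lost with either early anagen library left out. Of 10 IGF genes 8 fell and none rose (median -1.25; 1 and 8 under median-of-ratios scaling). Igf1, which fibroblasts make and the epithelium reads, went from 20.2 and 17 FPKM to 5.34, 4.76 and 4.84 FPKM (-1.71 ± 0.11 SE, adjusted p = 0.000269), and Igf2 fell by 1.77 ± 0.31 (adjusted p = 0.0081, or 0.0508 without early anagen replicate 1). In the Notch pathway 7 of 15 fell as deposited, but 1 did under median-of-ratios scaling and 1 or none did with an early anagen library left out.

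**Figure D4:**
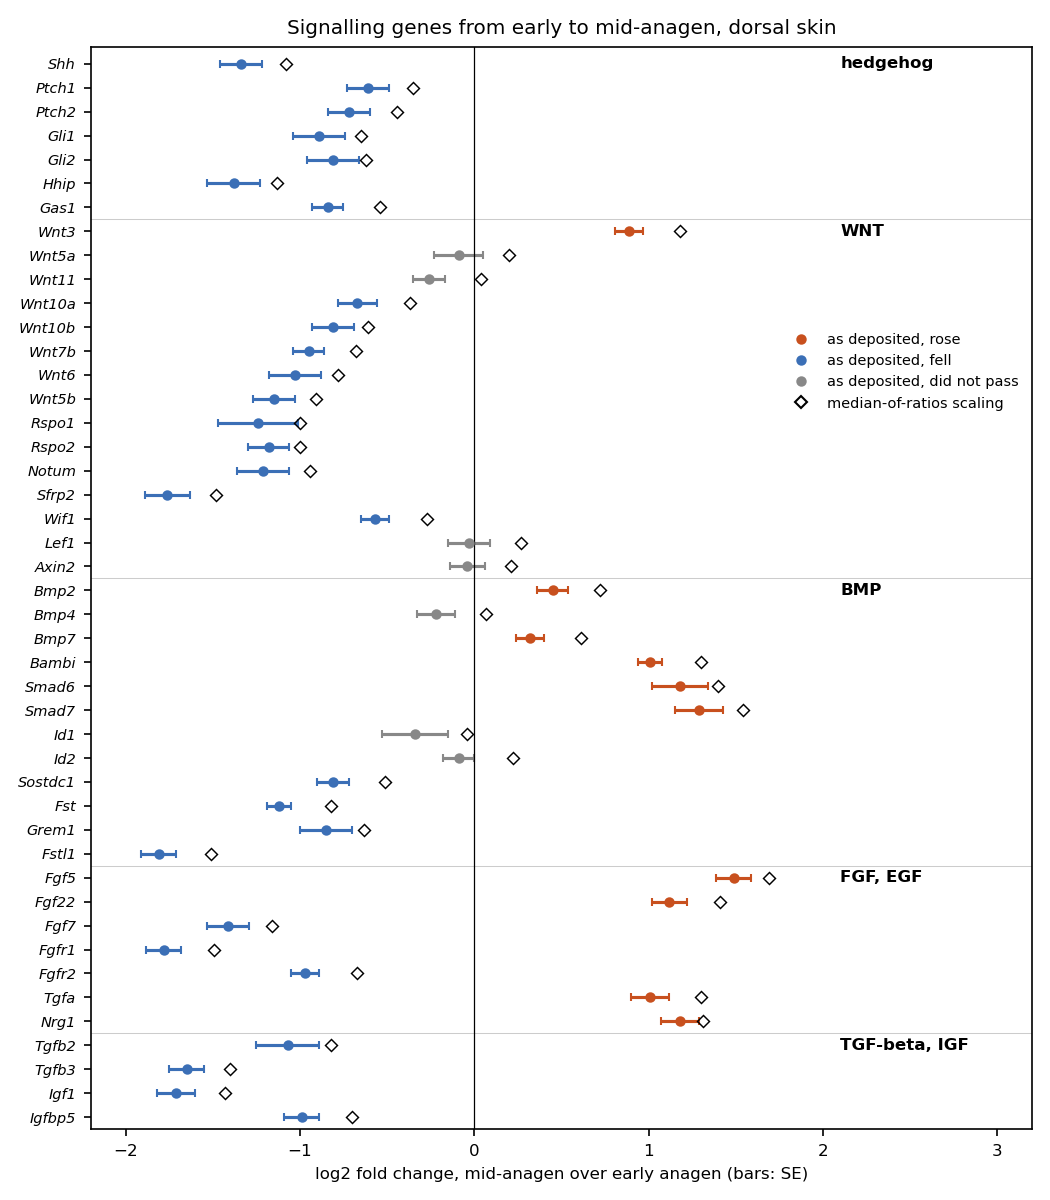
Log2 fold changes of signalling genes from early to mid-anagen with SE bars, ordered by pathway and coloured by call, with open diamonds for median-of-ratios scaling. Fgf5, Smad7, Fgf22, Nrg1 and Bambi lie to the right of 1 and Sfrp2, Fgfr1, Fstl1, Igf1 and Tgfb3 to the left of -1.5.

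Most markers of the dermal papilla fell. Of 18 measured, 14 fell and 1 rose, with a median of -0.74 (8 fell under median-of-ratios scaling, 7 without early anagen replicate 1 and 8 without replicate 2). Sox18, which papilla cells share with vessels, went from 21.6 and 19.6 FPKM to 2.25, 3.25 and 2.81 FPKM (-2.53 ± 0.14 SE, adjusted p = 0.000168). Vcan, the proteoglycan versican, went from 11.9 and 10.6 FPKM to 1.63, 1.18 and 1.16 FPKM (-2.4 ± 0.14), and Alpl, the alkaline phosphatase by which papillae are stained, from 7.02 and 5.74 FPKM to 0.69, 1.29 and 0.62 FPKM (-2.0 ± 0.19). The exception was Corin, a protease of papilla cells that acts on coat colour, which rose from 0.97 and 0.99 FPKM to 1.97, 2.03 and 2.57 FPKM (0.68 ± 0.13, adjusted p = 0.0114) but did not pass with either early anagen library left out or in the fit with replicate numbers as a block. Fibroblast genes of the dermis as a whole fell in the same libraries, by a median of -2.15 given below.

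Bulge stem cell markers also were lower in the main, 11 of 18 fallen and 3 risen (median -0.74; 3 and 10 under median-of-ratios scaling). Krt15, a keratin of the bulge and of basal cells, had 2242 and 2157 FPKM and 1184, 1178 and 1449 FPKM (-0.8 ± 0.12, adjusted p = 0.00445). Nfatc1, which keeps bulge cells quiescent, went from 16.5 and 14.9 FPKM to 5.03, 5.61 and 4.09 FPKM (-1.5 ± 0.14), and Cd34, which vessels also carry, fell by 1.26 ± 0.08. Foxi3, a factor of the early follicle, had 2.38 and 2.65 FPKM in early anagen and was listed at 0 in all mid-anagen libraries. Sox9, of bulge and outer root sheath, and Foxc1, of quiescent bulge cells, rose by 0.37 ± 0.10 and 0.58 ± 0.10. Of the list, 1 gene rose when either early anagen library was left out.

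Sebaceous gland genes had the lowest median among epithelial lists, -1.58, with 9 of 15 fallen and 3 risen (4 and 9 under median-of-ratios scaling). Scd3, a fatty acid desaturase of the gland, went from 63.7 and 60.4 FPKM to 6.35, 5.56 and 5.88 FPKM (-3.19 ± 0.09 SE, adjusted p = 2.46e-05). The wax synthase Awat1 went from 77.7 and 68.2 FPKM to 7.4, 8 and 7.7 FPKM (-3.08 ± 0.09), and Awat2, Dgat2l6 and Far2, enzymes of the same lipids, fell by 2.89, 2.89 and 2.73. Fabp5, Soat1 and Mgst1 rose by 0.84 or less, and none of them passed with either early anagen library left out. Of 17 sterol synthesis genes 3 rose and 5 fell (6 and 2 under median-of-ratios scaling, 1 and 2 without early anagen replicate 1, and 2 and 4 without replicate 2).

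Fat genes fell too, although the dermal fat layer is known to thicken during anagen. Of 24 adipocyte genes 20 fell and 1 rose (median -1.29; 2 and 19 under median-of-ratios scaling). Adipoq, the fat cell hormone adiponectin, had 124 and 117 FPKM and 41.1, 42.4 and 43.96 FPKM (-1.48 ± 0.07 SE, adjusted p = 0.00011), Lpl, the lipase that loads fat cells, 97.9 and 101 FPKM and 23.1, 21.6 and 21.4 FPKM (-2.12 ± 0.07), and Retn, resistin, 142 and 141 FPKM and 24.01, 26.1 and 31.9 FPKM (-2.34 ± 0.13). Against these, Fabp4, the fatty acid carrier of fat cells and of some vessels, rose from 781 and 935 FPKM to 1282, 1361 and 1403 FPKM (0.66 ± 0.11, adjusted p = 0.00574). The list's share of summed FPKM was 0.36% and 0.374% in early anagen and 0.242% to 0.268% in mid-anagen.

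Genes of the epidermis between follicles were mostly lower. Of 25 genes, 3 rose and 15 fell (median -0.56; 5 and 10 under median-of-ratios scaling, and 9 fell without early anagen replicate 1). The basal keratins Krt5 and Krt14 did not pass, at 0.02 ± 0.10 and -0.22 ± 0.09. Krt1 of the suprabasal layers fell from 133 and 127 FPKM to 53.1, 54.1 and 50.8 FPKM (-1.29 ± 0.07), its partner Krt10 went from 477 and 538 FPKM to 309.5, 322 and 354 FPKM (-0.63 ± 0.10, adjusted p = 0.00505, and 0.0536 under median-of-ratios scaling), and loricrin, Lor, had 951 and 894 FPKM and 446, 325 and 206 FPKM (-1.57 ± 0.31, adjusted p = 0.0115, or 0.0597 without early anagen replicate 1), with a wide spread among the mid-anagen libraries. Ivl, involucrin, an early protein of the cornified envelope that inner root sheath cells also make, rose from 62.6 and 63.5 FPKM to 272, 278 and 290.1 FPKM (2.13 ± 0.07 SE, adjusted p = 3.54e-05).

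Stress keratins and alarm genes rose in 7 of 10 cases and fell in 2 (median 0.97; 7 and 1 under median-of-ratios scaling). Sprr1b, a small proline-rich envelope protein, had 2.16 and 2.82 FPKM and then 319.9, 314 and 251 FPKM (6.4 ± 0.14 SE, adjusted p = 1.24e-05), the largest rise among protein-coding genes once keratin-associated and predicted genes are set aside. Krt16 and Krt6a, keratins of the companion layer as well as of wounded epidermis, rose by 1.63 ± 0.11 and 0.6 ± 0.10. S100a8, an alarm protein of keratinocytes and neutrophils, went from 48.5 and 47.4 FPKM to 180.2, 169 and 165 FPKM (1.81 ± 0.07). Of 4 measured genes on the neutrophil list 3 rose, S100a8, S100a9 and Cxcr2, against 10.1% of all genes tested. Ly6g, the defining neutrophil marker, was listed at 0 in all 5 libraries, and Elane and Mpo reached at most 0.13 and 0.05 FPKM. Which cells made S100a8 was not tested.

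Genes of the dermal matrix, the collagens and elastic fibres that fibroblasts lay down, fell together. Of 24 dermal matrix genes 22 fell and none rose, with a median of -2.15, and 22 fell under median-of-ratios scaling as well. Col1a1, the main collagen of skin, had 1646 and 1630.3 FPKM and then 284, 297 and 312 FPKM (-2.46 ± 0.08 SE, adjusted p = 3.3e-05), and Col3a1 went from 1333 and 1289 FPKM to 193, 200.3 and 213 FPKM (-2.69 ± 0.08). Mfap4, of the elastic fibres, fell most, from 212 and 187 FPKM to 22.2, 22.5 and 23.4 FPKM (-3.08 ± 0.08 SE, adjusted p = 2.24e-05), with Eln, elastin itself, at -2.72 ± 0.14. The pair that did not pass were Loxl2 (-0.09), a collagen cross-linker, and Col12a1 (-0.44). Basement membrane genes fell in 9 of 14 cases (median -0.81, and 7 under median-of-ratios scaling).

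Other tissues of the skin wall fell in the same libraries. Skeletal muscle genes fell in 29 of 30 cases and none rose (median -2.08; 1 and 28 under median-of-ratios scaling). Mylpf, a fast-fibre myosin light chain, went from 1376 and 1379 FPKM to 231, 202 and 186 FPKM (-2.74 ± 0.11), Acta1, skeletal actin, from 1983 and 1793 FPKM to 461, 480.3 and 481 FPKM (-1.99 ± 0.08), and Myl3, of slow fibres and heart, from 8.28 and 7 FPKM to 0, 0 and 0.13 FPKM. Smooth muscle genes fell in 9 of 12 cases (median -0.95) and vessel genes in 18 of 20 (median -0.75, with 12 under median-of-ratios scaling and 11 and 13 without early anagen replicate 1 and 2). Ccl21a, a chemokine of lymph vessels with several near-identical copies in the genome, went from 267 and 229 FPKM to 52.7, 56.1 and 59.8 FPKM (-2.12 ± 0.10), Pecam1, of all endothelium, fell by 1.27 ± 0.08, and Vegfa, the vessel growth factor, had 1.08 and 1.27 FPKM and 0.92, 1.25 and 1.54 FPKM (adjusted p = 0.885). Of 11 nerve genes 8 fell and none rose (median -1.06; 1 and 8 under median-of-ratios scaling).

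Immune and blood genes were lower. Macrophage and antigen-presenting cell genes fell in 20 of 23 cases (median -1.38, and 19 under median-of-ratios scaling), with C1qb, a complement gene of resident macrophages, at 52.7 and 49.4 FPKM and 11.5, 13.3 and 10.3 FPKM (-2.04 ± 0.12). All 8 measured T cell genes fell (median -0.76, with 7 under median-of-ratios scaling and 5 and 6 without early anagen replicate 1 and 2), as did 7 of 8 mast cell genes (median -1.85, with 6 under median-of-ratios scaling and 4 with either early anagen library left out), among them the protease Cma1, from 37.1 and 37.2 FPKM to 3.83, 3.61 and 4.28 FPKM (-2.96 ± 0.10 SE, adjusted p = 3.58e-05). Red blood cell genes fell in 5 of 6 cases. Hbb-bt, an adult globin, went from 249.8 and 245 FPKM to 27.7, 31.3 and 16.9 FPKM (-3.28 ± 0.25), while Slc4a1, the anion exchanger of red cells, rose by 0.95 ± 0.12. Interferon response genes moved little, with 2 of 11 fallen as deposited and none under median-of-ratios scaling or with either early anagen library left out.

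Rapid-response and mitochondrially encoded genes were mostly lower. Over all genes tested 10.1% rose and 33.2% fell, and the glycolysis genes given last lay near these shares. Of 20 immediate early and stress genes 13 fell and 1 rose (median -0.51; 2 and 8 under median-of-ratios scaling). Fos, which is induced within minutes of many stimuli, went from 251 and 246 FPKM to 73.7, 76.6 and 68.7 FPKM (-1.75 ± 0.08), and Nr4a1 from 45.6 and 42.2 FPKM to 7.54, 8.11 and 8.61 FPKM (-2.31 ± 0.09). The mitochondrially encoded genes of the respiratory chain fell in 10 of 13 cases (median -1.33), mt-Nd1 from 12599 and 12813 FPKM to 4439, 4451 and 4220.1 FPKM (-1.54 ± 0.09), and their share of summed FPKM went from 6.41% and 7.64% to between 2.52% and 3.11%. Clock genes fell in 7 of 17 cases as deposited (2 and 4 without early anagen replicate 1 and 2), and 2 rose and 4 fell under median-of-ratios scaling. Hormone receptors fell in 8 of 13 cases, or 3 under that scaling, where 1 rose, and 3 and 4 without these libraries, with the glucocorticoid receptor Nr3c1 at -1.09 ± 0.08. Glycolysis genes split, 2 of 16 risen and 5 fallen (6 and 3 under that scaling), with Aldoc up by 0.62 ± 0.13 (adjusted p = 0.0536 without early anagen replicate 2) and the muscle enzyme Pfkm down at -1.3 ± 0.15.

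The study named putative activators and inhibitors of hair growth from a separate microarray time course of dorsal skin, as genes whose course over the cycle matched that of simulated signals, and not from these libraries. Of 232 putative activators measured, 6 rose and 167 fell (median -0.59), against 10 and 83 under median-of-ratios scaling. Of 121 putative inhibitors, 38 rose and 15 fell (median 0.13), against 68 and 2. With early anagen replicate 1 or 2 left out, 96 and 106 activators fell, 27 and 25 inhibitors rose and 5 and 7 inhibitors fell. Against backgrounds of 10.1% higher and 33.2% lower, the inhibitors held more risers and the activators more fallers, and the lists overlap with the pathway genes above. In the study's simulation the inhibitor builds up and the activator declines as anagen goes on. The lists were chosen to follow these courses in dorsal skin, so this split was in part built in and is no test of their roles. The activators include many cell cycle genes, such as Mcm7, Aurkb, Bub1 and Ccnb1, so their fall in part repeats that of the cell cycle genes. Pla2g2e, a secreted phospholipase of the follicle, rose most among the inhibitors, from 16.5 and 17.7 FPKM to 118, 119 and 103 FPKM (2.65 ± 0.09 SE, adjusted p = 4.64e-05), followed by Pla2g4b (2.1 ± 0.36), with Foxn1, Fgf5, Smad7, Prkca (1.24 ± 0.13), Fgf22 and Bambi also among them. Msx1 and Id4 were inhibitors that fell, by 0.81 and 0.72, the second with an adjusted p of 0.0663 under median-of-ratios scaling. The activators that rose were Pola1, a subunit of DNA polymerase alpha (9.56 and 13.03 FPKM to 37.6, 27.4 and 25.8 FPKM, 1.34 ± 0.20), Parp1 (0.86 ± 0.11), Fgf18, Tcf7, Chek2 and Pola2, of which Fgf18, Chek2 and Pola2 were lost with either early anagen library left out. Those that fell furthest were Vcan, Nr4a1, Mef2c (-1.94 ± 0.22) and Cdkn1c (-1.9 ± 0.08).

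Over all genes, the 10 largest rises with separated libraries were 9 loci of the keratin-associated protein families, of which Krtap19-9a is annotated as a processed pseudogene, and Gm10228, a predicted gene that went from 5.74 and 4.32 FPKM to 1532, 1564 and 1600.1 FPKM. The largest falls were short or repeated loci, several of them with identical values, that with the exception of AC099934.1 (adjusted p = 0.0395, and not past the threshold with either early anagen library left out) were listed at 0 in mid-anagen and are uncertain: Gm10180, Gm3699 and Gm10736 each had 112 and 144 FPKM in early anagen. Among named protein-coding genes outside the shaft families, chosen after their values were seen, Car6, a secreted carbonic anhydrase, went from 3.37 and 4.42 FPKM to 219, 223 and 245 FPKM (5.56 ± 0.12), and Lce3d, a late cornified envelope gene, from 0.34 and 0.36 FPKM to 69.8, 69.3 and 59.8 FPKM (5.64 ± 0.10). Serpinb6e, a protease inhibitor of the serpin family, fell from 53.7 and 55.5 FPKM to 1.16, 0.79 and 1.16 FPKM (-4.78 ± 0.12 SE, adjusted p = 1.93e-05), and Ces4a, a carboxylesterase, by 3.64 ± 0.12. Of tested protein-coding genes, 1369 rose and 5264 fell.

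The same step was set against that of ventral and chin skin, with 5 and 4 libraries of early and mid-anagen, in a fit of 14 libraries and 19203 genes. The ventral early anagen libraries went against their label: Shh was at 0.14 to 0.27 FPKM and Mki67 at 1.39 to 1.42 FPKM, and keratin-associated protein genes held 4.1% to 4.25% of summed FPKM, so that differences from ventral skin rest on libraries without signs of a proliferating bulb. In this fit 37.7% of genes passed for the dorsal change (8.63% higher and 29.0% lower), 42.9% for the ventral change (16.9% and 26.0%) and 13.4% for the chin change (3.16% and 10.3%). The chin replicates differed by 11.42 (early) and 19.02 (mid) times what sampling noise would give. For dorsal replicates this was 2.38 (early) and 1.77 to 7.98 (mid). How far this spread lowered the chin counts was not tested. The dorsal and ventral changes differed for 6590 genes (34.3%), 2549 more positive in dorsal skin (13.3%) and 4041 more negative (21.0%), with 1650 more positive when ventral mid-anagen replicate 2 was left out. The dorsal and chin changes differed for 1473 genes (7.67%), 634 more positive (3.3%) and 839 more negative (4.37%). The chin comparison rested on single libraries: 671 and 759 genes differed without dorsal early anagen replicate 1 and 2, 760 without chin early anagen replicate 1 and 2642 without chin mid-anagen replicate 2, and over all libraries left out the more positive ranged from 346 to 1110 and the more negative from 308 to 1532. The counts by list below come from the same fit. Of the genes that passed in both domains, 1770 had the same sign in dorsal and chin skin and 50 opposite signs, against 2624 and 1170 for dorsal and ventral skin.

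Most hair shaft genes rose further in dorsal skin than in either of the others. Of the 56 keratin-associated protein genes, the dorsal change was more positive than the ventral one for 38 and more negative for 4, and more positive than the chin one for 45 and more negative for none, with median changes of 4.31 dorsally, 2.55 ventrally and 2.64 in the chin. The starting levels differed: these genes held 0.139% and 0.164% of summed FPKM in dorsal early anagen, 2.13% and 2.28% in chin and 4.1% to 4.25% in ventral early anagen. In mid-anagen the dorsal share, 6.41% to 6.74%, was below the chin (12.9% and 15.7%) and ventral (14.5% in both) shares, so the larger dorsal change ended at a lower level. All 5 type II hair keratins rose further than in the chin, with 7 of the 9 type I. The inner root sheath list had 10 of 15 genes with a more positive change than in the chin and none with a more negative one, but against ventral skin 6 had a more positive and 5 a more negative change, with medians of 1.61 dorsally and 1.9 ventrally. In the fall of dermal matrix genes dorsal skin also went further, more negative than the chin in 19 of 24 cases (chin median -1.02) and than ventral skin in 23 (ventral median 0.59). Of 40 cell cycle genes 1 had a more negative change in dorsal than in chin skin and 39 a more negative one than in ventral skin, with medians of -0.76, -0.66 and 1.66 for dorsal, chin and ventral skin. For Shh itself the change was 2.04 ± 0.24 in ventral and -0.19 ± 0.26 in chin skin, against -1.34 in dorsal skin, and the dorsal and chin changes did not differ past the threshold (adjusted p = 0.0758).

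**Figure D5:**
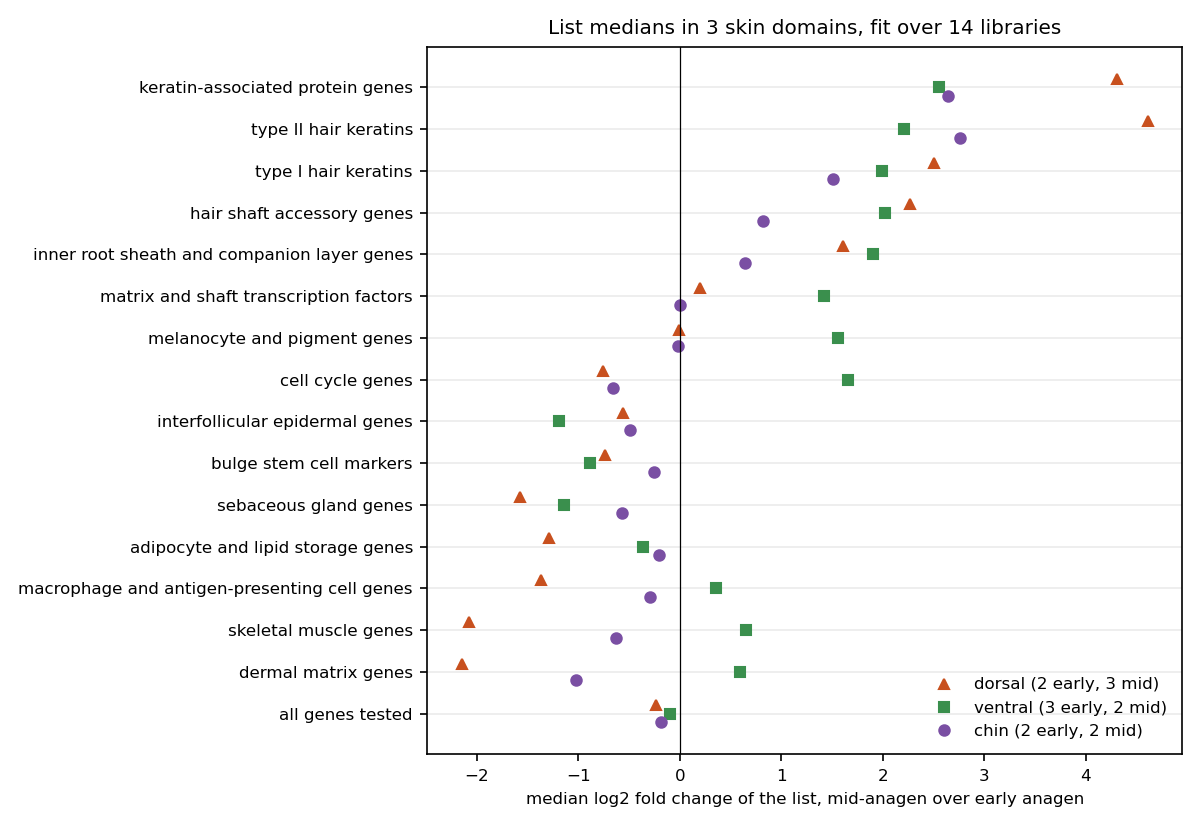
Median log2 fold change from early to mid-anagen of the genes of each list in dorsal, ventral and chin skin. Each marker is a list median in a domain. Dorsal medians of hair keratin and keratin-associated protein genes lie to the right of the others, dorsal and chin medians of cell cycle genes lie together below 0, and the ventral one lies above 0.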

How the data were processed

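Whole dorsal skin had been sequenced as paired-end libraries made by a SMART-seq2 type protocol from total RNA. The authors quantified reads against mm10 (GENCODE vM8) with RSEM 1.2.25, state that samples were batch-effect corrected without naming batches or a method, and deposited FPKM per gene, whose table of 43 skin libraries and 46983 genes was used here. No read counts were at hand, and no count model was fitted. Genes that reached 0.5 FPKM in 2 or more of the compared libraries were put on the log2(FPKM + 1) scale (pseudocount 1) and fitted with limma 3.58.1 in R 4.3.3 with a variance trend and Benjamini-Hochberg adjustment at 0.05. Groups came from the sample labels. A fit of 14 libraries with an interaction term compared the step with ventral and chin skin. A log2 fold change is on the log2(FPKM + 1) scale and understates the change of low genes.

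The members and the 49 gene lists, of which 762 of 766 genes are in the table, were chosen with earlier results of these data known. Genes described in full were, for most lists, mainly those with the largest fold changes in each direction among genes that passed and whose libraries did not overlap between the stages. For some lists, such as smooth muscle and basement membrane genes, no member is described, and some members, such as Acta1, are given outside this rule. To these came the 10 largest rises and falls over all genes, the 5 largest in each direction of each comparison between domains, and a set of anchor genes given whatever their result. List members may be named besides. Krt85 is not analysed here, and 76 symbols stand on more than 1 row, where the row with the highest mean was taken.

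Depth was estimated from the steps of low FPKM values in 13792 genes with 1 transcript of 400 to 2500 bases. Each of the 5 dorsal libraries compared had 2216 to 2877 such low values, of which 72.6% to 77.1% came out whole within 0.1 of a read. This was too few to recover reads for a count test. The scaling (TPM, median of ratios, quantile, and libraries scaled without keratin genes), the pseudocount, the filter, the variance trend, the libraries fitted and leaving out each library were varied. Averaging mid-anagen replicates 1 and 2, whose values lay closest to sampling noise (1.77 times its expectation, against 2.38 for the early anagen pair), was added after seeing the data. Mid-anagen replicate 3 lay further off, at 7.98 and 5.34 times the expectation against replicates 1 and 2. The fit was tested on simulated data. Gene positions came from GENCODE vM21 and upstream sequences from RefSeq, both on GRCm38. Tables and figures were made with Python 3.11.15, numpy 2.4.6, pandas 2.3.3 and matplotlib 3.10.9.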

Additional observations from a re-analysis of the deposited data

Results flagged for a closer look

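The early to mid-anagen change of dorsal skin differed from that of ventral skin for 6590 genes and from that of chin skin for 1473 genes by the interaction term of the 14-library fit. Against ventral skin, the 5 largest positive differences on the log2 scale were those of Gm27743 (12.44), Gm10800 (12.31), Gm26870 (12.09), Gm10719 (11.57) and Gm10717 (11.55), and the 5 largest negative ones those of Mir1906-1 and Mir1906-2 (-7.83 each) and Gm7336, Gm10359 and Gm12671 (-6.21 each). These are predicted genes or short loci, several with the same values, whose reads are shared with copies elsewhere, and their values are uncertain. Gm10800 had 24.9 and 42.0 FPKM in dorsal early anagen and 3397, 3194 and 2440.0 FPKM in dorsal mid-anagen.

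Against chin skin, the 5 largest positive differences were those of Krtap16-3 (6.73), Gm10800 (6.14), Krtap19-5 (6.06), Gm10718 (6.03) and Gm26870 (6.02), and the 5 largest negative ones those of Gm24853 (-7.73) and, at -4.86 each, Serpinb6e, Gm12671, Gm10359 and Gm7336. The keratin-associated protein genes among them are members of tandem families with near copies.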

How the results depend on the processing

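Of 159 named genes that passed, 132 passed in the same direction under every alternative and none changed sign. The calls lost were 21 without early anagen replicate 1, 21 without replicate 2, 10, 9 and 4 without mid-anagen replicates 1, 2 and 3, 9 with no filter, 8 with mid-anagen replicates 1 and 2 averaged, 8 with the replicate block, 7 under the median of ratios, 6 with all 43 skin libraries, 5 under quantile normalization, and 4 or fewer under each of the others. The batch correction behind the deposited values could not be undone, and with 2 and 3 libraries the spread rests on few values.

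The counts of higher and lower genes moved with scaling, to 3055 and 2766 under the median of ratios, and lower genes to 3134 under quantile normalization. With a library left out, 3985 to 7087 genes differed, 1138 to 1725 higher and 2802 to 5362 lower, the fewest without early anagen replicate 1 (3985) and replicate 2 (4347). With mid-anagen replicates 1 and 2 averaged, 6387 differed. For the difference from ventral skin these ranges were 4409 to 7460, 1650 to 2901 and 2759 to 4559, with 1650 higher without ventral mid-anagen replicate 2. For the difference from chin skin they were 671 to 2642, 346 to 1110 and 308 to 1532, with 671 and 759 without the dorsal early anagen replicates 1 and 2, 760 without chin early anagen replicate 1 and 2642 without chin mid-anagen replicate 2. With all 43 skin libraries fitted, 2310 genes differed from chin skin, 956 higher and 1354 lower. The cause of these shifts beyond the smaller or larger number of libraries was not tested.

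Replicate numbers were not treated as pairs, since deviations of same-numbered libraries correlated at 0.05 and 0.03. With the replicate block, 5865 genes differed between the stages (1495 higher, 4370 lower), 4778 differed from ventral skin and 872 from chin skin (419 higher, 453 lower).

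Genes that did not pass changed sign as follows. Under the median of ratios, log2 fold changes were 0.21 for Axin2, 0.07 for Bmp4, 0.01 for Ccne1, 0.19 for Dct, 0.22 for Id2, 0.16 for Id3, 0.09 for Krt14, 0.27 for Lef1, 0.19 for Loxl2, 0.30 for Sfrp1, 0.04 for Wnt11 and 0.20 for Wnt5a. Under quantile normalization they were 0.27 for Axin2, 0.04 for Ccne1, -0.04 for Krt5, 0.09 for Lef1, 0.15 for Loxl2, 0.14 for Sfrp1 and 0.08 for Wnt5a. When scaled without keratin genes they were 0.06 for Axin2, 0.01 for Dct, 0.04 for Id2, 0.09 for Lef1, 0.03 for Loxl2, 0.12 for Sfrp1 and 0.03 for Wnt5a, and Krt74 was at -0.02 with TPM. With mid-anagen replicates averaged they were -0.01 for Krt5, -0.03 for Krt74, 0.02 for Lef1 and 0.00 for Sfrp1, and with the block 0.09 for Id3 and -0.06 for Vegfa. With a library left out they ranged over -0.10 to 0.01 for Axin2, -0.19 to 0.01 for Id2, -0.26 to 0.09 for Id3, -0.03 to 0.08 for Krt5, -0.06 to 0.06 for Krt74, -0.13 to 0.05 for Lef1, -0.07 to 0.06 for Sfrp1, -0.06 to 0.14 for Vegfa and -0.25 to 0.07 for Wnt5a.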

Other observations

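Lists that served as checks held few measured genes. Of 10 cartilage genes 1 was measured, Acan, an aggregating proteoglycan, which fell from 1.6 and 1.2 FPKM to 0.16, 0.21 and 0.24 FPKM. Of 4 measured neutrophil genes 3 rose, against 10.1% of all genes tested. These were S100a8, S100a9 and the chemokine receptor Cxcr2 (3.05 and 2.32 FPKM to 7.96, 6.93 and 6.93 FPKM), while the defining Ly6g was listed at 0 in all libraries. Xist stood at 10.2 to 11.4 FPKM in all 5 libraries and the Y-linked Ddx3y was listed at 0 in each, so the stages did not differ in these sex-linked genes. Of the genes annotated as TEC, unspliced transcripts that await experimental checks, 105 rose, 21 fell and 378 did not pass, a split unlike that of protein-coding genes, of which 1369 rose and 5264 fell. The difference of the splits was not tested.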
